A study of Mus musculus with 17 samples.

Results

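Spp1, which encodes the secreted phosphoprotein osteopontin, and Cd44, which encodes a cell-surface receptor of osteopontin and hyaluronan, were followed in all 17 single-cell libraries of the series, 8 from skin and 9 from kidney. They are 2 of the 32933 genes listed in the series. The pair was selected on the measured Spp1 level in skin stromal cells, which was higher with bleomycin than with PBS, so both genes in those cells under that comparison are given as a description with no test.

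The study asked how SARA, the membrane-associated adaptor protein encoded by Zfyve9, acts in cells of the PDGFR-β lineage during scarring of skin and kidney. Green fluorescent cells were sorted and sequenced as droplet libraries, from mice labelled as 8 weeks old. The study's methods give 8 weeks as the age at entry to the experiments, with harvest after the injections. In these mice a PDGFRb-Cre driver had switched on the Z/EG reporter, and both genotypes carried the driver and the reporter. SARATg mice also carried human SARA cDNA behind the CAG promoter and a Cre-removable stop in Rosa26, and their SARAWT littermates did not.

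Skin came from SARAWT mice given PBS (3 libraries) or bleomycin (3 libraries) and from SARATg mice given PBS (1 library) or bleomycin (1 library). Bleomycin was injected under the skin at 20 mg/kg, 3 times a week for 2 weeks per the labels, whereas the study's methods give a daily injection, so the total dose is uncertain. Kidney came from SARAWT mice given vehicle (3 libraries) or aristolochic acid (AA, 3 libraries) and from SARATg mice given vehicle (2 libraries) or AA (1 library). AA, a plant toxin that injures the proximal tubule, was injected into the abdomen at 5 mg/kg, 3 times a week for 3 weeks. The driver is also active in leukocytes, so the sort was not limited to pericytes. Nothing in the labels ties a library to a stated number of animals, and p-values measure only the spread between these libraries, which may be technical.

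Osteopontin is a secreted matrix protein that binds cells through integrins and through CD44. It is made by injured tubules, activated macrophages and many wound cells, and in the healthy kidney by the distal nephron. CD44 is abundant on leukocytes and other migrating cells, binds hyaluronan, and is tied to the cortical cytoskeleton by ezrin, radixin and moesin.

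On mouse build GRCm38, Spp1 (ENSMUSG00000029304) lies on chromosome 5 from 104435118 to 104441050 on the plus strand, and Cd44 (ENSMUSG00000005087) lies on chromosome 2 from 102811141 to 102901665 on the minus strand. The windows from 250 bases before to 50 bases after each start site, from RefSeq (GRCm38.p6), are shown because these start regions belong to the 2 genes whose levels are compared throughout. Capitals mark matches to the motifs searched. The Spp1 window is at chr5:104434861-104435160 on the plus strand and the Cd44 window at chr2:102901616-102901915 on the minus strand.
Spp1: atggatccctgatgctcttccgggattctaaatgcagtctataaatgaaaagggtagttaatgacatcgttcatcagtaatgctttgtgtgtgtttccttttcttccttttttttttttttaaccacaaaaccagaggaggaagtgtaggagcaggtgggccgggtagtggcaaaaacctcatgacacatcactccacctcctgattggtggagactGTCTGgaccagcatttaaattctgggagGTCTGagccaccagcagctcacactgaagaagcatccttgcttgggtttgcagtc
Cd44: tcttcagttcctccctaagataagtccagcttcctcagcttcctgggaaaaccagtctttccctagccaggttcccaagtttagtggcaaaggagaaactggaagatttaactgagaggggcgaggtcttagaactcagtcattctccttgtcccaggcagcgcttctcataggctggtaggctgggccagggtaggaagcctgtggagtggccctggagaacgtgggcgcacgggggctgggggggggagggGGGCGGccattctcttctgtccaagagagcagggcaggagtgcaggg
The Spp1 window had a GC content of 45.3% and the Cd44 window one of 58%. Both strands were searched for the binding element of SMAD proteins, written CAGAC, which was found in 49.5% of the 32544 promoters listed. The Spp1 window held it 2 times, both on the opposite strand and starting at positions -33 and -5 from the start site, where the capitals show its complement. These positions count from the RefSeq start site, which for Spp1 lies a few bases before the gene start given above. The GC box, written GGGCGG, was found in 35.88% of promoters, and the Cd44 window held it 1 time, from position 3. The AP-1 element, written TGANTCA, was found in 7.79% of promoters and in neither window.

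The libraries held 3355217 to 137093834 UMIs (unique molecular identifiers, each standing for 1 captured transcript) over all barcodes, and 781 to 11773 cells were kept in a library. Cells were placed in classes from marker genes that did not include Spp1 or Cd44, and levels are given in CPM, the UMIs of a gene in 1000000 UMIs of that class in that library. Pdgfrb was at 7.08 to 59.6 CPM over all cells in skin and at 0.186 to 3.00 CPM in kidney, where most cells were tubule cells or leukocytes. Zfyve9 was at 314 and 224 CPM in the SARATg skin libraries but also at 621 CPM in the library labelled SARAWT PBS 3. Human ZFYVE9, which SARAWT mice should lack, was listed only for the libraries labelled SARAWT PBS 1 and 2 and SARAWT bleomycin 1 and 2, and was at 838, 187, 87.4 and 112 CPM there, above their Zfyve9 of 7.75 to 26.0 CPM. Of the 6 SARAWT skin libraries only SARAWT bleomycin 3 (Zfyve9 at 9.39 CPM, human gene not listed) showed neither, so the genotype labels of the other 5 are in doubt, and the human gene has no level in a SARATg library to set these against. In kidney, Zfyve9 was at 167 CPM in the library labelled SARAWT AA 1 and at 20.7 CPM in the library labelled SARATg AA 1, against 93.3 and 91.6 CPM in the SARATg vehicle libraries. The library labelled SARAWT vehicle 3 stood apart, with 3338 T cells among 7606 cells and proximal tubule injury markers summing to 754 CPM against 376 to 752 CPM in the SARAWT AA libraries. The T cell class was gated on genes such as Cd3e, Lck and Il7r and can also hold innate lymphoid cells. By Xist and Ddx3y, SARAWT vehicle 2 and SARATg AA 1 were of the other sex than the remaining 7 kidney libraries (Xist at 1327 and 1321 CPM against at most 0.477). Groups are named as labelled, and values without SARAWT PBS 1 and 3 in skin, or without SARAWT vehicle 3, SARAWT AA 1 or SARATg AA 1 in kidney, are given where they change a direction or a call. These libraries were doubted after their values were seen. Leaving out a control with high Spp1 by itself raises the difference with injury, so such fits are a description and not an independent test. Between 17.6% and 55.5% of the barcodes of SARAWT PBS 2 and SARAWT bleomycin 1 and 2 recurred in another library, against 7.38% or less elsewhere.

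In skin stromal cells, the matrix-producing cells marked by Pdgfra, Dpt and Lum, Spp1 was higher in every bleomycin library than in every PBS library. Spp1 was at 19.2, 57.3 and 33.7 CPM in SARAWT PBS 1, 2 and 3. It was at 278, 545 and 298 CPM in SARAWT bleomycin 1, 2 and 3. These groups did not overlap, with means of 36.7 ± 19.2 and 374 ± 149 CPM (SD, n = 3), a difference of 3.35 on the log2 scale (10.2-fold) against a spread between libraries of 0.67. Within each replicate number the log2 difference was 3.86, 3.25 and 3.15. In SARATg mice Spp1 was at 5.86 CPM (95% exact Poisson interval 4.82 to 7.07) in the PBS library and at 229 CPM (222 to 236) in the bleomycin library, a log2 difference of 5.29 with no replicate check. Such intervals cover counting error only.

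The share of stromal cells in which Spp1 was seen moved in the same direction. To set libraries of unequal depth side by side, the share was computed for cells thinned to 1000 UMIs each, leaving out the 240 of 3211 stromal cells below that depth. Spp1 was then seen in 2.13%, 7.13% and 3.50% of stromal cells in SARAWT PBS 1, 2 and 3. It was seen in 12.5%, 15.6% and 12.4% in SARAWT bleomycin 1, 2 and 3, again without overlap. The shares were 0.891% and 13.1% in the SARATg PBS and SARATg bleomycin libraries. Without thinning, at median depths of 1600 to 32071 UMIs a cell, the share ran from 2.97% to 44.2%. As a background, T cells of the same 8 libraries (median depths of 6147 to 8805 UMIs) held Spp1 in 0.611% to 1.79% of cells at 1000 UMIs, and keratinocytes held 0 to 4.65 CPM. Spp1 was uneven between stromal cells, and the top 1% of them gave between 13.0% and 69.1% of its UMIs.

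Outside the stroma, neutrophils, short-lived phagocytes of acute inflammation, held the most Spp1 in skin. Spp1 was at 1169 and 1617 CPM in the neutrophils of SARAWT PBS 1 and 3, and SARAWT PBS 2 had under 10 neutrophils. It was at 2261, 3511 and 2754 CPM in SARAWT bleomycin 1, 2 and 3. The SARAWT groups did not overlap, yet the log2 difference of 0.97 ± 0.38 (SE) did not pass across all genes (edgeR quasi-likelihood test, adjusted p = 1), where 0% of 2800 genes passed, with 106 at an unadjusted p under 0.05 and 1 called by DESeq2. SARATg was at 1021 CPM in its 1 PBS library and at 701 CPM in its 1 bleomycin library, which gives no replicate check. These values rest on few cells, since 1 cell gave 53 of the 65 Spp1 UMIs in the 21 neutrophils of SARAWT PBS 1 and all 156 in the 16 neutrophils of SARAWT bleomycin 2.

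In skin macrophages, tissue phagocytes that take up debris, Spp1 overlapped between SARAWT PBS and bleomycin. It was at 20.1, 16.1 and 222 CPM in SARAWT PBS 1, 2 and 3. It was at 99.6, 67.4 and 205 CPM in SARAWT bleomycin 1, 2 and 3. The library labelled SARAWT PBS 3, which also had the high Zfyve9, was above the highest bleomycin library, and the log2 difference was 0.47 ± 0.96 (SE, adjusted p = 0.903, edgeR). In that fit 0.0595% of 11758 genes passed (7 genes). Xist was at 0.202 and 0.659 CPM in SARAWT PBS 3 and bleomycin 3. It was at 441 to 688 CPM in the other SARAWT skin libraries, which were thus of the other sex. Leaving out SARAWT PBS 3 left no control of the sex of bleomycin 3. PBS 1 and 2 and bleomycin 1 and 2 by themselves were of the same sex, and the part of sex was not tested. Without SARAWT PBS 3 the difference was 2.90 (adjusted p = 0.0315, with 4.1% of 12218 genes called), and in the 4 libraries counted with the longer gene list alone, PBS 1 and 2 and bleomycin 1 and 2, it was 2.31 (adjusted p = 0.00542, with 8.69% of 11994 called). Without both SARAWT PBS 1 and 3 it was 3.02 (adjusted p = 0.263), with 1 control library left, SARAWT PBS 2 (176 macrophages and 17 Spp1 UMIs), taken to vary like the others. With replicate number as a block the difference was 1.40 (edgeR adjusted p = 0.234), and 114 genes passed in place of 7. SARATg macrophages were at 38.6 CPM (35.4 to 42.0) with PBS and 166 CPM (161 to 171) with bleomycin, of which 1 cell gave 1809 of 4125 UMIs.

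T cells held little Spp1, at 15.5, 12.9 and 25.0 CPM in SARAWT PBS 1, 2 and 3. They held 53.6, 25.7 and 60.5 CPM in SARAWT bleomycin 1, 2 and 3. The 12.9 CPM of SARAWT PBS 2 came from 12 T cells with 77724 UMIs over all genes, a value open to counting error. The groups were separated by less than 1 CPM, and the log2 difference of 1.26 ± 0.38 (SE) did not pass (edgeR, adjusted p = 0.584) where 0% of 8696 genes passed, with 473 at an unadjusted p under 0.05 and 20 called by DESeq2. It passed with the replicate block, at 1.51 (adjusted p = 0.00288, with 1.25% of 8696 genes called), and without a filter on low counts, at 1.28 (adjusted p = 0.0313, with 1.12% of 17479 called), and the top 1% of T cells gave 85.4% of the Spp1 UMIs of SARAWT bleomycin 3. In skin dendritic cells, which present antigen, the groups did not overlap in the other direction. Their Spp1 was at 62.2, 42.0 and 40.3 CPM with PBS and at 37.2, 31.3 and 27.7 CPM with bleomycin in SARAWT, and at 75.0 and 30.5 CPM in SARATg (SARAWT log2 difference -0.57, edgeR adjusted p = 0.753, with 0% of 8745 genes called, 607 at an unadjusted p under 0.05 and 19 by DESeq2). Schwann cells, the glia of skin nerves, ranged from 0 to 897 CPM, and 1 cell gave 162 of the 163 UMIs in the highest library, SARAWT bleomycin 2 (log2 difference 2.77, edgeR adjusted p = 0.314, with 1.08% of 5288 genes called). It passed there without a filter on low counts (edgeR adjusted p = 7.22e-08, with 2.11% of 15288 called). Keratinocytes held Spp1 at 0 to 4.65 CPM, and mast cells at 0 to 9.08 CPM except for 284 CPM in SARATg bleomycin, where 1 cell gave 37 of 78 UMIs.

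**Figure D1:**
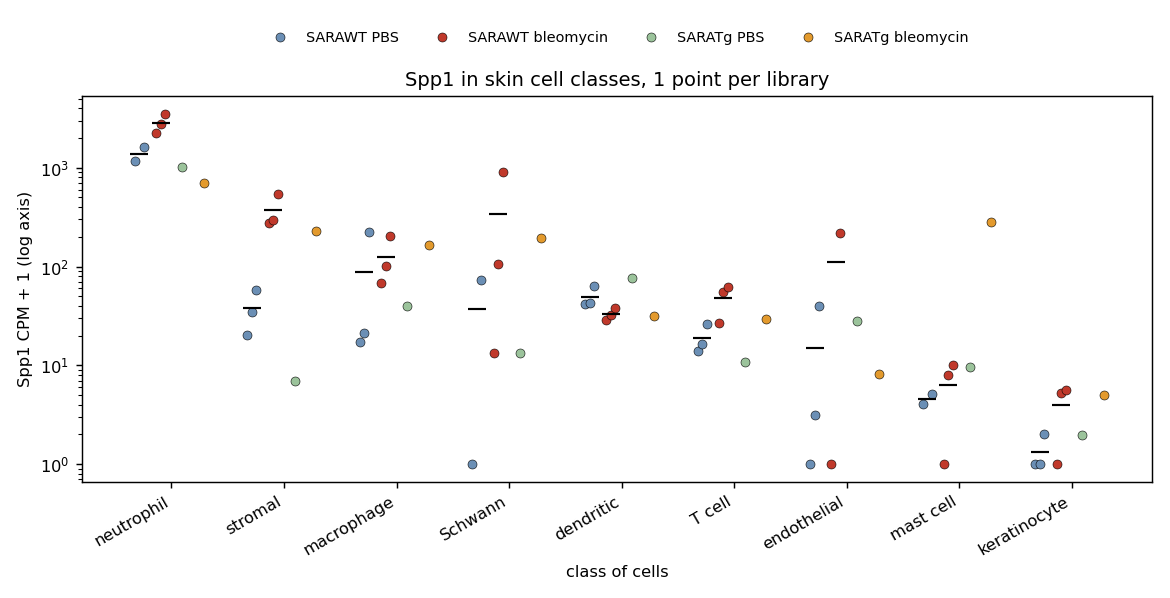
Spp1 in skin cell classes with at least 10 cells in a library, as CPM + 1 on a log axis, 1 point for each library, coloured by group, with bars at the mean of groups of 2 or more libraries. The stromal points of SARAWT PBS (19.2 to 57.3 CPM) and SARAWT bleomycin (278 to 545 CPM) are apart, while in macrophages the SARAWT PBS 3 point at 222 CPM lies above every bleomycin point.

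In skin stromal cells Cd44 was at 216, 197 and 367 CPM in SARAWT PBS 1, 2 and 3. It was at 365, 224 and 512 CPM in SARAWT bleomycin 1, 2 and 3. The groups overlapped, with means of 260 ± 93.1 and 367 ± 144 CPM (SD, n = 3), and the log2 difference of 0.50 was below the spread between libraries of 0.54. Each bleomycin library was above the PBS library of the same number, by 0.76, 0.19 and 0.48 on the log2 scale. In SARATg mice Cd44 was at 133 CPM (128 to 139) with PBS and 485 CPM (475 to 496) with bleomycin, a log2 difference of 1.86 with no replicate check. At 1000 UMIs a cell Cd44 was seen in 13.1% to 23.6% of SARAWT PBS and 16.4% to 26.0% of SARAWT bleomycin stromal cells, and in 11.2% and 32.3% of those in the SARATg libraries.

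Neutrophils carried the highest Cd44 in skin, at 1323 to 2133 CPM over the 7 libraries with at least 10 of them, and it was seen in 71.1% to 84.2% of these cells at 1000 UMIs. Their groups overlapped (log2 difference 0.12, edgeR adjusted p = 1). In macrophages Cd44 was at 487, 620 and 807 CPM in SARAWT PBS 1, 2 and 3 and at 470, 484 and 668 CPM in SARAWT bleomycin 1, 2 and 3. These groups overlapped as well, with a log2 difference of -0.19 ± 0.28 (SE, adjusted p = 0.853, edgeR). SARATg macrophages were at 716 CPM with PBS and 595 CPM with bleomycin.

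In dendritic cells, as for Spp1, every bleomycin library was below every PBS library. The share of all genes whose groups do not overlap was not counted in any class. Nothing is therefore read from such a separation, here or in the classes above. Cd44 was at 479, 399 and 353 CPM in SARAWT PBS and at 190.5, 274 and 272 CPM in SARAWT bleomycin dendritic cells, and at 478 and 261 CPM in SARATg. The SARAWT log2 difference of -0.68 ± 0.23 (SE) did not pass across all genes (edgeR, adjusted p = 0.616). Endothelial cells, which line vessels, had a lower mean Cd44 than every class but mural cells, at 14.2 to 132 CPM. Keratinocytes, next above in the mean, were higher in 6 of 7 libraries. Cd44 was seen in 0.875% to 7.35% of endothelial cells at 1000 UMIs. Endothelial Cd44 did not pass (log2 difference -0.60, edgeR adjusted p = 0.705, with 0.358% of 4475 genes called).

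**Figure D2:**
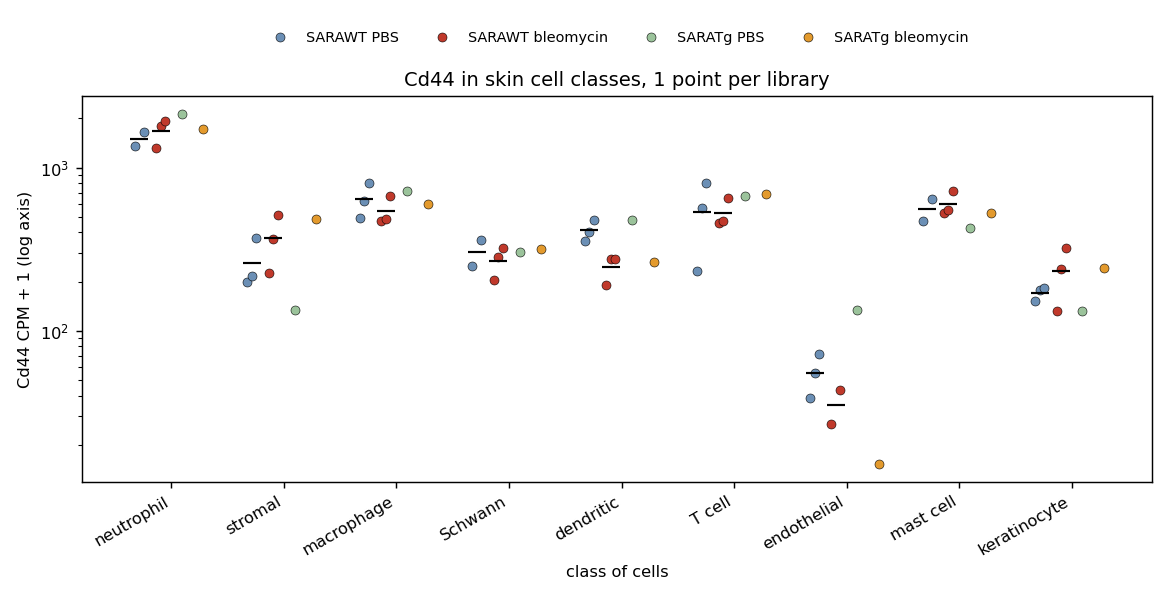
Cd44 in 9 skin cell classes, in libraries with at least 10 cells of the class, as CPM + 1 on a log axis, 1 point for each library, coloured by group, with bars at the mean of groups of 2 or more libraries. Of the 9 classes drawn, neutrophils lie highest (1323 to 2133 CPM) and endothelial cells lowest by their mean (14.2 to 132 CPM), and dendritic cells are lower in both bleomycin groups than in both PBS groups.

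In order of the mean log2 level across skin classes, Spp1 ran from neutrophils through stromal cells, macrophages, Schwann cells, dendritic cells, T cells, endothelial cells, mast cells, muscle cells and keratinocytes to mural cells. These are means over the libraries with at least 10 cells of a class, which differ between classes. Neutrophils were above stromal cells in 7 of 7 libraries by 4.16 on the log2 scale, and stromal cells above macrophages in 5 of 8 by 0.25. For Cd44 the order ran from neutrophils through macrophages, mast cells, T cells, dendritic cells, Schwann cells, stromal cells, muscle cells, keratinocytes and endothelial cells to mural cells. Neutrophils exceeded macrophages in 7 of 7 libraries by 1.499, where 7 libraries allow no exact p under 0.0156 and the value over 10 neighbouring pairs was 0.156 (two-sided exact sign-flip test, Benjamini-Hochberg). In the libraries they shared, mast cells were below T cells (-0.15) and Schwann cells below stromal cells (-0.069) for Cd44, against the order of the means. No neighbouring pair without stromal cells passed for either gene in skin.

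In the kidney, among the classes measured in at least 4 libraries, mean Spp1 was higher in the tubule classes than in the others. Its mean was highest in the thick ascending limb, the salt-reclaiming segment of the loop of Henle. That class held 1929 to 26619 CPM over the 9 libraries. Distal convoluted tubule cells held 1256 to 10722 CPM (SARAWT log2 difference with AA -0.25, edgeR adjusted p = 0.911, with 0.0432% of 4628 genes called). Without SARAWT vehicle 3, whose 10282 CPM was the highest of the SARAWT libraries, AA was higher there by 1.65 (edgeR adjusted p = 0.0163, with 2.83% of 5129 genes called), and by 1.66 without SARAWT AA 1 as well (edgeR adjusted p = 0.00836, with 2.7% of 7329 called). Both fits were added after the data were seen. Intercalated cells, the acid-base cells of the collecting duct, held 1167 to 6033 CPM (0.26, edgeR adjusted p = 0.725, with 0.0162% of 6186 genes called). These distal classes held Spp1 in every library, vehicle included. The proximal tubule, the site of AA injury, was the most variable of them. Kidney stromal cells were too few to be ordered with these classes, and only SARATg vehicle 2 and SARATg AA 1 held enough of them. Their Spp1 was at 15.3 CPM in SARATg vehicle 2 (39 cells) and at 11744 CPM in SARATg AA 1 (13 cells). The latter was above the proximal tubule of that library (4717 CPM) and below its thick ascending limb (15017 CPM). This difference between stromal cells was not tested.

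Proximal tubule Spp1 was at 85.0, 1816 and 6916 CPM in SARAWT vehicle 1, 2 and 3. It was at 3422, 2649 and 7158 CPM in SARAWT AA 1, 2 and 3. The library labelled SARAWT vehicle 3 lay among the AA libraries, so the groups overlapped, and the log2 difference was 0.39 ± 1.18 (SE, adjusted p = 0.893, edgeR). In that fit 0% of 13116 genes passed, with 990 at an unadjusted p under 0.05 and 30 called by DESeq2. Without SARAWT vehicle 3 the difference was 2.10 (adjusted p = 0.262), and without both SARAWT vehicle 3 and SARAWT AA 1 it was 2.24 (adjusted p = 0.392). In SARATg mice the vehicle libraries were at 142 and 448 CPM and the library labelled SARATg AA 1 at 4717 CPM (4681 to 4753).

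By the share of proximal tubule cells with Spp1, SARAWT vehicle 2 as well as SARAWT vehicle 3 lay among the SARAWT AA libraries. At 1000 UMIs this share was 5.98%, 73.8% and 78.9% in SARAWT vehicle 1, 2 and 3 and 69.3%, 62.7% and 86.4% in SARAWT AA 1, 2 and 3. It was 9.54% and 12.5% in the SARATg vehicle libraries and 87.1% in SARATg AA 1. As a background, B cells held Spp1 in 0.577% to 7.10% of cells at the same depth and T cells in 0.635% to 9.83%, with the highest of these shares in the AA libraries. All tubule cells pooled gave a log2 difference of 0.38 ± 1.12 (SE, adjusted p = 0.895, edgeR, with 0% of 13534 genes called, 957 at an unadjusted p under 0.05 and 17 by DESeq2), and 2.05 without SARAWT vehicle 3 (adjusted p = 0.259).

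The tubule injury markers were read in the same proximal tubule cells. The summed level of Havcr1 (the kidney injury molecule KIM-1), Lcn2, Krt8, Krt18, Krt20, Sox9, Vcam1, Cdkn1a, Clu and Tnfrsf12a was 150, 149.6 and 754 CPM in SARAWT vehicle 1, 2 and 3. It was 752, 376 and 669 CPM in SARAWT AA 1, 2 and 3. It was 121 and 243 CPM in the SARATg vehicle libraries and 1052 CPM in SARATg AA 1. The sums of SARAWT vehicle 1 and 2 were close while their Spp1 was at 85.0 and 1816 CPM, but Krt8 made up 103 and 85.0 CPM of these sums. Single markers differed, with Lcn2 at 0.549 and 20.0 CPM and Havcr1 at 0.969 and 3.61 CPM in SARAWT vehicle 1 and 2, and Cdkn1a at 21.4 and 7.08 CPM. SARAWT vehicle 2 also differed in sex from the other SARAWT kidney libraries, and SARATg AA 1 from the SARATg vehicle libraries, and the part of sex in these levels was not tested.

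**Figure D3:**
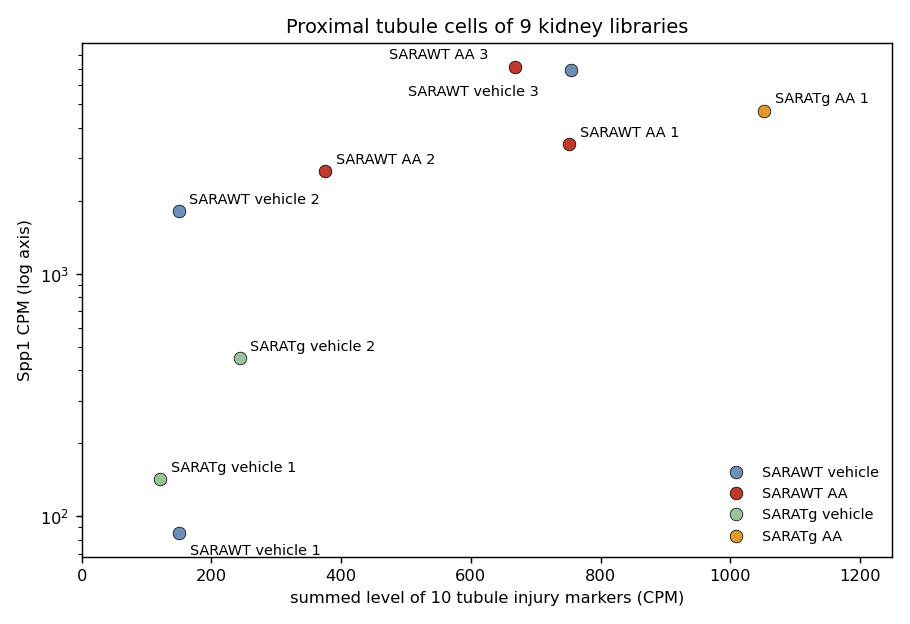
Spp1 (CPM, log axis) against the summed CPM of 10 tubule injury markers in the proximal tubule cells of the 9 kidney libraries, coloured by group and named beside each point. SARAWT vehicle 3 lies with the AA libraries on both axes, and SARAWT vehicle 1 and 2 have like sums (150 and 149.6 CPM), of which Krt8 is 103 and 85.0 CPM, at 85.0 and 1816 CPM of Spp1.

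Within a library, proximal tubule cells with and without each of 10 injury markers were compared, and Spp1 was higher with 7 of them. The split was run for these 10 genes alone. How often any other gene would pass was not counted, so nothing is read from the number that did. Spp1 was higher by 1.72 on the log2 scale in cells with Vcam1, by 1.23 in cells with Clu and by 0.68 in cells with Tnfrsf12a, each in 9 of 9 libraries (adjusted p = 0.0130 over 10 markers by the exact sign-flip test, two-sided). It was higher by 1.86 in cells with Krt18 (8 of 9 libraries), by 1.53 with Lcn2 (7 of 8), by 1.02 with Krt20 (7 of 7) and by 1.05 with Havcr1 (7 of 9), with adjusted p = 0.0260, 0.0260, 0.0260 and 0.0335 by the same exact test. Cells with Cdkn1a, an inhibitor of the cell cycle, had a difference of -0.09 (higher in 5 of 9, exact adjusted p = 0.754). Krt8 at 0.30 and Sox9 at 1.16 did not pass (exact adjusted p = 0.135 and 0.0781). Cells in which a marker was seen can also be deeper than the rest, and the part of depth in these differences was not tested beyond the use of CPM. RNA from other tubule classes was not tested in these cells either. Mean Spp1 was 9995 CPM in the thick ascending limb against 3039 CPM in the proximal tubule. In the 6 libraries other than SARAWT vehicle 3, SARAWT AA 1 and SARATg AA 1, the differences with Vcam1 (1.99), Clu (1.41), Tnfrsf12a (0.52) and Krt18 (2.37) each had that direction in 6 of 6 libraries, and no marker passed (exact adjusted p = 0.0781 for these 4, where 6 libraries allow no raw p under 0.0313).

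Thick ascending limb Spp1 was at 1929, 3492 and 26619 CPM in SARAWT vehicle 1, 2 and 3. It was at 11526, 8507 and 8814 CPM in SARAWT AA 1, 2 and 3, and at 2356, 11696 and 15017 CPM in SARATg vehicle 1, SARATg vehicle 2 and SARATg AA 1. With all 6 SARAWT libraries the log2 difference was -0.12 ± 0.73 (SE, adjusted p = 0.982, edgeR, with 0% of 5128 genes called, 455 at an unadjusted p under 0.05 and 7 by DESeq2). Without SARAWT vehicle 3, in which 29 cells were in the class and 1 of them gave 3454 of 6355 UMIs, AA was higher by 1.97 (adjusted p = 0.000952, with 1.67% of 5919 genes called). Without both SARAWT vehicle 3 and SARAWT AA 1 it was higher by 1.81 (adjusted p = 0.000522, with 3.09% of 6405 called). The direction with all 6 libraries also turned with a replicate block (0.92) and without the deepest cells (0.56), neither of which passed.

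Kidney macrophages held Spp1 at 29.1, 119 and 1227 CPM in SARAWT vehicle 1, 2 and 3. They held 1630, 1400 and 1150 CPM in SARAWT AA 1, 2 and 3, and 47.2 and 152 CPM in SARATg vehicle and 653 CPM in SARATg AA 1. SARAWT vehicle 3 again lay at the AA level, and the log2 difference was 1.52 ± 1.12 (SE, adjusted p = 0.770, edgeR, with 0% of 11688 genes called, 776 at an unadjusted p under 0.05 and 23 by DESeq2). Without SARAWT vehicle 3 it was 4.29 (adjusted p = 0.0243, with 4.91% of 10796 genes called), and without both SARAWT vehicle 3 and SARAWT AA 1 it was 4.17 (adjusted p = 0.0471, with 2.19% of 10225 called). At 1000 UMIs Spp1 was seen in 2.64% to 6.77% of the macrophages of SARAWT vehicle 1 and 2 and both SARATg vehicle libraries, and in 11.8% to 24.8% of those of the other 5 libraries. Kidney endothelial cells held Spp1 at 36.2, 319 and 3217 CPM in SARAWT vehicle 1, 2 and 3 and at 485 and 95.02 CPM in SARAWT AA 1 and 2, and SARAWT AA 3 had 3 such cells. The groups overlapped, and the log2 difference of -1.98 did not pass (edgeR adjusted p = 1, with 0% of 7793 genes called, 301 at an unadjusted p under 0.05 and 15 by DESeq2) and was 0.99 without SARAWT vehicle 3 (adjusted p = 0.631). Without a filter on low counts it passed at -2.01 (edgeR adjusted p = 0.000834, with 1.1% of 16150 called). Kidney T cells held 6.51 to 487 CPM, and the top 1% of them gave 91.9% of the UMIs in SARAWT AA 1.

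**Figure D4:**
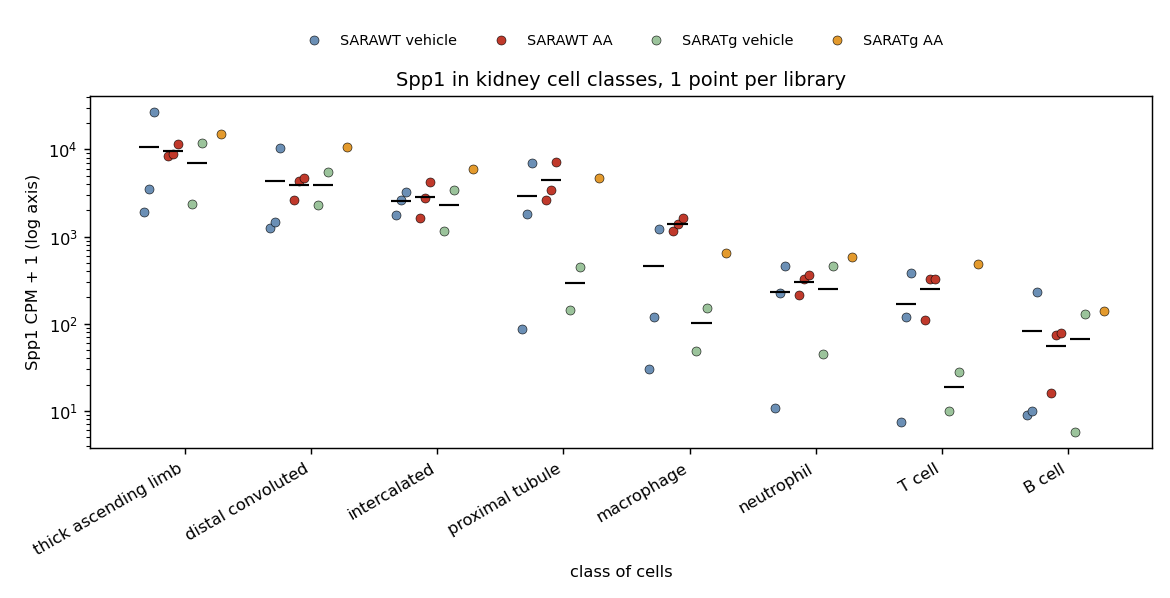
Spp1 in kidney cell classes with at least 10 cells in a library, as CPM + 1 on a log axis, 1 point for each library, coloured by group, with bars at the mean of groups of 2 or more libraries. Distal classes are above 1000 CPM in all 9 libraries, and the SARAWT vehicle libraries run from 85.0 to 6916 CPM in proximal tubule cells, from 29.1 to 1227 CPM in macrophages and from 1929 to 26619 CPM in the thick ascending limb.

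Cd44 in the kidney was a leukocyte gene. Neutrophils were at 647, 562 and 583 CPM in SARAWT vehicle 1, 2 and 3 and at 613, 1137 and 919 CPM in SARAWT AA 1, 2 and 3. They were at 1099, 682 and 517 CPM in SARATg vehicle 1, SARATg vehicle 2 and SARATg AA 1. The SARAWT groups overlapped (log2 difference 0.41, edgeR adjusted p = 0.975, with 0% of 4255 genes called, 227 at an unadjusted p under 0.05 and 1 by DESeq2). Macrophages were next, at 110, 90.6 and 124 CPM with vehicle and 207, 94.5 and 164 CPM with AA in SARAWT, also overlapping (log2 difference 0.52, edgeR adjusted p = 0.723). In kidney endothelial cells the SARAWT groups did not overlap for Cd44, at 6.89 to 32.2 CPM with vehicle and 40.5 to 40.7 CPM with AA (2 libraries). SARAWT AA 2 held 21 of these cells. The SARATg groups overlapped, at up to 25.9 CPM with vehicle and 24.6 CPM with AA. The share of all genes whose groups do not overlap was not counted, so nothing is read from this separation. In the SARAWT fit 0 of 7793 genes passed (edgeR). Neutrophils exceeded macrophages in 9 of 9 libraries by 2.57 on the log2 scale (adjusted p = 0.0430 over 11 neighbouring pairs by the exact sign-flip test).

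The proximal tubule held little Cd44. It was at 1.36, 3.77 and 14.9 CPM in SARAWT vehicle 1, 2 and 3. It was at 20.2, 5.93 and 13.2 CPM in SARAWT AA 1, 2 and 3, and at 5.00 and 12.5 CPM in SARATg vehicle and 19.8 CPM in SARATg AA 1. The SARAWT groups overlapped, with a log2 difference of 0.81 ± 0.84 (SE, adjusted p = 0.689, edgeR) and of 2.20 without SARAWT vehicle 3 (adjusted p = 0.0851). Cd44 was seen in 0.110% to 1.27% of these cells at 1000 UMIs. Endothelial cells were above the proximal tubule in 8 of 8 libraries by 1.38 on the log2 scale (exact sign-flip test, p = 0.00781, adjusted p = 0.0430), and no other neighbouring pair of classes passed for Cd44. Leaving out SARAWT vehicle 3, SARAWT AA 1 and SARATg AA 1, this pair and that of neutrophils over macrophages kept their direction in every library, at 1.74 and 2.85, and no pair passed (exact adjusted p = 0.344 for both). The order for Spp1 ran from the thick ascending limb through principal cells, distal convoluted tubule, intercalated cells, proximal tubule, endothelial cells, macrophages, neutrophils, T cells, NK cells and dendritic cells to B cells, and none of its 11 neighbouring pairs passed. Principal cells were measured in 6 libraries, and in these their level minus that of the distal convoluted tubule was -0.077 (higher in 2 of 6), against the order of the means.

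**Figure D5:**
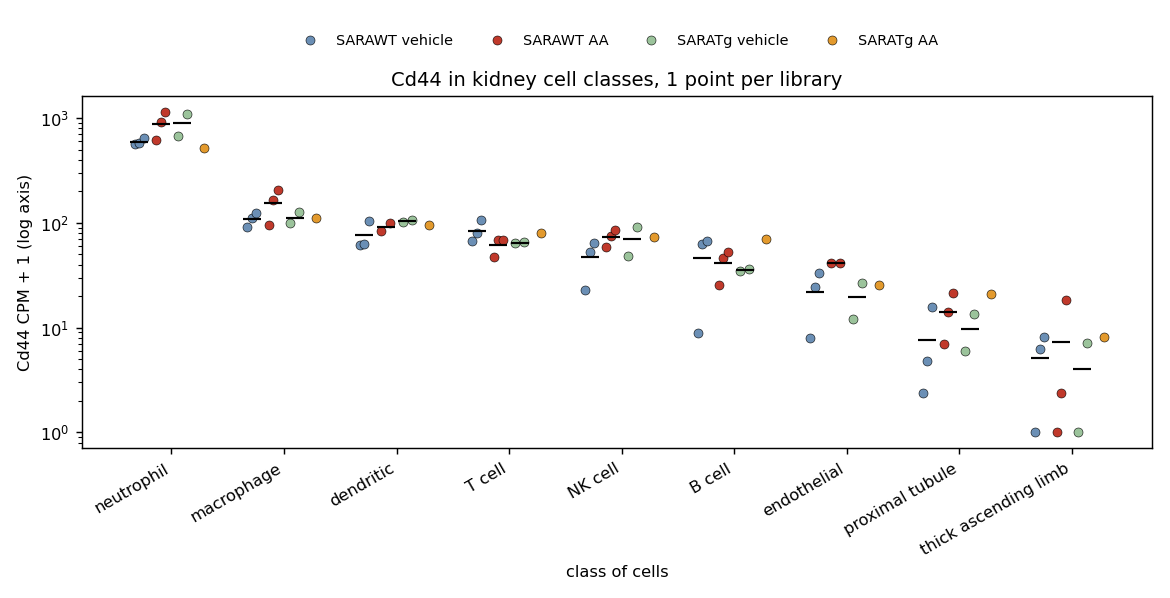
Cd44 in kidney cell classes with at least 10 cells in a library, as CPM + 1 on a log axis, 1 point for each library, coloured by group, with bars at the mean of groups of 2 or more libraries. Neutrophils (517 to 1137 CPM) lie above macrophages (90.6 to 207 CPM) in every library, and tubule classes lie lowest.

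Ligand and receptor were then set side by side in the same cells. Kidney macrophages with a Spp1 UMI held less Cd44 than those without one in 9 of 9 libraries, with a mean log2 difference of -0.58 (adjusted p = 0.0352 over 9 classes by the exact sign-flip test). In SARAWT AA 1, for example, Cd44 was at 166 CPM in the 571 macrophages with Spp1 and at 252 CPM in the 917 without. The macrophages with Spp1 were deeper in 9 of 9 libraries (14058 against 8045 UMIs at the median in SARAWT vehicle 3), and at full depth the share with a Cd44 UMI was higher among them in 5 of 9. At 1000 UMIs a cell, a comparison chosen after seeing the data, the share was lower among them in 7 of 9 (two-sided exact sign-flip test, p = 0.0234, not adjusted), with 10.1% against 16.4% in SARAWT vehicle 3 and 7.98% against 6.84% in SARAWT vehicle 2. They also held tubule markers at a level 2.36 higher on the log2 scale, in 9 of 9 libraries. Among macrophages with no UMI of the 49 tubule markers the Cd44 difference was -0.56 and did not pass (lower in 6 of 9, exact p = 0.109). Over all macrophages without SARAWT vehicle 3, SARAWT AA 1 and SARATg AA 1 it was -0.58, lower in 6 of 6 libraries (exact p = 0.0313, the smallest 6 libraries allow, adjusted p = 0.281). In the 7 other classes outside the skin stroma the difference did not pass, from -0.50 in skin T cells (exact adjusted p = 0.141) to 1.28 in the proximal tubule (exact adjusted p = 0.141). Skin T cells, lower in 5 of 5 libraries, and skin neutrophils, with 4 libraries, could not pass, since the smallest exact p they allow is 0.0625 and 0.125. In skin stromal cells, as a description, the mean was -0.27 (SD 1.18), yet Cd44 was higher in cells with Spp1 in 5 of 8 libraries. The lowest value came from SARAWT PBS 2, with Cd44 at 22.7 CPM in 14 cells with Spp1 and at 207 CPM in 123 without.

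Spp1 in kidney macrophages was compared between cells with and without 8 genes often seen with it in scar-associated macrophages, of which 5 passed. Other genes were not split in this way, so nothing is read from that count. Spp1 was higher by 3.00 on the log2 scale in macrophages with the tetraspanin Cd9, in 9 of 9 libraries (adjusted p = 0.0188 over 8 markers by the exact sign-flip test). It was higher by 2.83 with the tetraspanin Cd63, by 2.20 with the protease Ctsd, by 1.59 with the galectin Lgals3 and by 0.98 with the lipase Lpl, each in 8 of 9 libraries (exact adjusted p = 0.0188). Trem2 at 1.04 (5 of 9 libraries), Fabp5 at 0.63 (7 of 9) and Gpnmb at 2.01 (5 of 5) did not pass (exact adjusted p = 0.160, 0.107 and 0.0833), and 5 libraries allow no exact p under 0.0625, so Gpnmb could not. Tubule markers were also higher in these cells, by 1.37, 2.297, 1.30, 0.44 and 1.35 for Cd9, Cd63, Ctsd, Lgals3 and Lpl. As in the proximal tubule, cells with a marker can also be deeper, and the part of depth was not tested beyond the use of CPM. Among macrophages with no tubule marker UMI, Spp1 was still higher with Cd9 (2.80, 9 of 9 libraries, exact adjusted p = 0.0313) and there, unlike over all macrophages, also with the lipid receptor Trem2 (2.29, 8 of 8, exact adjusted p = 0.0313). Cd63 at 1.91, Ctsd at 1.63, Lgals3 at 1.31 and Lpl at 0.86 no longer passed there (exact adjusted p = 0.0938, 0.0875, 0.0875 and 0.0875). In the 6 kidney libraries other than SARAWT vehicle 3, SARAWT AA 1 and SARATg AA 1, which allow no exact p under 0.0313, no marker passed in either set of macrophages. Spp1 was there higher with Cd9 by 2.27 over all macrophages, in 6 of 6 libraries (exact adjusted p = 0.150), and with Trem2 by 1.78 in those with no tubule marker UMI, in 5 of 5 (exact adjusted p = 0.219). In skin macrophages the largest difference was 1.84 with Lgals3, in 8 of 8 libraries, which did not pass (exact p = 0.00781, adjusted p = 0.0625).

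The partners of osteopontin and CD44 were described from 10 lists with 53 genes. In skin stromal cells, where 5.55% of 11402 genes passed (edgeR, 357 higher, or 3.13%, and 276 lower, or 2.42%, with bleomycin, and 1420 in all with the replicate block), 5 of the 38 list genes measured passed. This contrast is the one that chose Spp1, so nothing is read from that share. Of 8 osteopontin-binding integrin chains measured, Itgb1, the shared beta chain of many matrix receptors, rose by 0.88 on the log2 scale (421 to 770 CPM, adjusted p = 0.0483) and Itga9, its alpha-9 partner, fell by 1.28 on the log2 scale (24.2 to 10.3 CPM, adjusted p = 0.0342). Of the 4 proteins that link CD44 to the cytoskeleton, Msn, which encodes moesin, rose by 1.09 (224 to 481 CPM, adjusted p = 0.0393).

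The cytokine Mif, which signals through CD74 with CD44, rose by 1.98 (179 to 703 CPM, adjusted p = 0.0228), while Cd74 had a log2 difference of -0.10 (adjusted p = 0.856). Sox9, a transcription factor on the tubule injury list, rose by 1.36 in stromal cells (39.01 to 98.9 CPM, adjusted p = 0.0274). Without 1 replicate at a time, Itgb1, Itga9 and Sox9 lost the call in 6 of 6 fits, Msn in 5 and Mif in 3. All 5 also lost it without shared barcodes (adjusted p up to 0.527), and all but Mif with the stricter gate and without the deepest cells, where Itga9 was at -0.58. Without SARAWT PBS 1 and 3, which leaves 1 control library, 1 of 11758 genes passed and all 5 lost the call, with Itgb1 at 0.99, Itga9 at -0.83, Msn at 1.56, Mif at 2.28 and Sox9 at 1.12 (edgeR adjusted p from 0.124 to 0.352). None of the 6 hyaluronan genes or 2 osteopontin-cleaving proteases measured passed, with Has1, a hyaluronan synthase, at -1.84 (adjusted p = 0.0558) and Mmp9, a gelatinase, at 3.24 (adjusted p = 0.0606). The median log2 difference over all list genes was 0.02, against -0.02 over all genes tested.

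No list gene passed in skin macrophages (34 measured), in all kidney tubule cells (38) or in the proximal tubule (39) by edgeR. At an unadjusted p under 0.05 there were 5 in skin macrophages and 2 in either tubule fit, the lipid genes Fabp5 and Lpl, against 1187 of 11758 genes in skin macrophages, 957 of 13534 in tubule cells and 990 of 13116 in the proximal tubule. DESeq2 called Gpnmb, a lysosomal glycoprotein, and the integrin chain Itgb5 in skin macrophages, where it called 246 genes in all, and 0 in tubule cells. The median log2 differences over the lists were -0.04, 0.30 and 0.25, against 0.00, 0.00 and -0.01 over all genes tested. In the proximal tubule Havcr1 had a log2 difference of 0.19 (adjusted p = 0.954) and Vcam1 one of 1.88 (adjusted p = 0.608). The integrin chain Itgb6, typical of tubule epithelium, was at 106 and 88.1 CPM with vehicle and AA (adjusted p = 0.579).

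Across classes, the genes whose mean log2 level was most like that of Spp1 in skin were Ftl1-ps1, Isg20, Slc16a3, Cxcl3 and Pgd (Pearson r from 0.913 to 0.879 over 11 classes and 7001 genes). Ftl1-ps1 is a pseudogene that can share reads with the ferritin gene Ftl1, so its value is uncertain. For Cd44 in skin they were Xpo6, Stx11, Dcaf12, 1810013L24Rik and Dennd1b (0.938 to 0.886). In kidney they were 1110065P20Rik, Bicc1, 1700011H14Rik, Ocln and Ldhb for Spp1 (0.976 to 0.971 over 12 classes and 6561 genes) and Antxr2, Lcp1, Ptpre, Samsn1 and Vsir for Cd44 (0.990 to 0.968). The classes share libraries and depth, and these values are a description. Between Spp1 and Cd44 themselves r was 0.759 in skin, where both were highest in neutrophils, and -0.788 in kidney, where Spp1 was highest in tubule cells and Cd44 in leukocytes.

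Between genotypes, SARATg was compared with SARAWT among controls, among injured libraries and in the injury effect, outside skin stromal cells (edgeR). The SARATg arms were 1 library each in skin and 1 AA library in kidney, and such a library was assumed to vary like the other groups. Libraries of both sexes were set against each other in these fits, and Zfyve9 or human ZFYVE9 went against the labels of every SARAWT skin library but SARAWT bleomycin 3 and of SARAWT AA 1 and SARATg AA 1. A p that misses the threshold here does not show that the genotypes were alike. Neither gene passed, and the smallest adjusted p was 0.0809, for Spp1 in mast cells of the bleomycin libraries (log2 difference 5.51, 0 of 3792 genes called and 130 at an unadjusted p under 0.05), where the 1 SARATg library owed 37 of its 78 UMIs to 1 cell. Without SARAWT PBS 1 and 3 in skin, which leaves 3 SARAWT libraries with human ZFYVE9, and SARAWT vehicle 3 and AA 1 in kidney, the smallest was 0.0555, for Spp1 in the distal convoluted tubule of vehicle libraries (log2 difference 1.79).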

How the data were processed

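The authors deposited filtered gene-by-cell matrices of UMI counts, with no normalization. The submitters' processing notes name Cell Ranger 3.0.2, Seurat 2.3.4 and mm10, and the file headers name Cell Ranger 3.0.2 for 9 libraries, 3.1.0 for 4 and 4.0.0 for 4. The latter list 32286 genes, human ZFYVE9 included, and the others 31053. Skin tests used the 30406 shared genes.

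Cells were kept if they held 200 genes or more and no more than 20% (skin) or 50% (kidney) mitochondrial UMIs. A cell took the class with the most markers detected, at least 3 and at least 2 more than any other class, out of 203 markers in all. This lead was the only treatment of doublets. Cells with fewer markers of another lineage, such as macrophages with tubule marker UMIs, were kept. Counts were summed per library and class (at least 10 cells) and tested with edgeR 4.0.16 (quasi-likelihood test, filterByExpr, TMM, Benjamini-Hochberg over all genes, threshold 0.05) in R 4.3.3, with only the groups compared. DESeq2 1.42.0 was an alternative. Single values were tested over libraries by two-sided exact sign-flip permutation on log2(CPM + 1) in Python 3.11.15 with scipy 1.17.1. Shares at 1000 UMIs are exact hypergeometric expectations, and intervals are exact at 95%. Genes named were Spp1 and Cd44 in every class, up to 3 called genes for each partner list and the 5 most alike genes (at least 50 CPM in a class). Other list genes (Has1, Mmp9, Havcr1, Vcam1, Itgb6, Itgb5, Gpnmb, Fabp5 and Lpl in these fits) were named after their values were seen. The genes and lists were chosen with earlier results of these data known. In counts simulated from the real means, where 200 genes were shifted by 2 on the log2 scale, edgeR recovered 75.5% in skin macrophages (11758 genes), 50% in the proximal tubule (13116) and 45% in all tubule cells (13534), and 6.79%, 15.3% and 4.26% of its calls were false. The shifted genes were drawn only from those with higher counts. Each gene was simulated by itself, with no outlying library and no effect of batch or sex. The rates hold for that setting alone.

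Same-numbered skin libraries deviated together (r = 0.250, 0.267 and 0.431 in stromal cells and 0.450, 0.414 and 0.685 in macrophages), so the numbers were used as a block. In macrophages numbers 1 and 2 were not told apart. There SARAWT PBS 1 with bleomycin 2 gave r = 0.452, and SARAWT PBS 2 with bleomycin 1 gave r = 0.300. The same number also goes with the same gene list and with the same sex by sex-linked transcripts.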

Additional observations from a re-analysis of the deposited data

How the results depend on the processing

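The log2 difference of Spp1 in skin stromal cells, which chose the genes and so supports nothing, was 2.97 to 3.82 without 1 replicate at a time and 2.71 to 3.48 under the other alternatives, and that of Cd44 there 0.18 to 0.83 and 0.31 to 0.90. Leaving out 1 replicate gave Spp1 -0.092 to 2.90 and Cd44 -0.41 to 0.11 in skin macrophages, Spp1 -0.21 to 2.05 and Cd44 0.18 to 2.01 in tubule cells, and Spp1 -0.18 to 2.10 and Cd44 0.32 to 2.20 in the proximal tubule. The highest of these for Spp1 and for the kidney came without SARAWT PBS 3 and without SARAWT vehicle 3. Spp1 in skin macrophages passed with the longer gene list alone (2.31), an alternative added after seeing the data like those without several libraries and that without SARAWT vehicle 3 in the distal convoluted tubule and kidney endothelium. Counts of genes called in skin macrophages went from 7 to 246 (DESeq2), 88 (no filter on low counts), 114 (replicate block), 2 (no shared barcodes), 2 (no deep cells), 0 (without SARAWT PBS 1 and 3), 1042 (longer gene list alone) and 0 to 501 (without 1 replicate). In stromal cells they went from 633 to 1166, 1171, 1420, 38, 29, 1, 37 and 24 to 384 in the same order, and to 279 with the stricter gate. In tubule cells they went from 0 to 17 (DESeq2) and 0 to 154 (without 1 replicate), and in the proximal tubule to 30 and 0 to 496.

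In kidney, numbers did not pair the libraries (r = -0.247, 0.137 and 0.162 in tubule cells), and the replicate block gave Spp1 1.43 in tubule cells (adjusted p = 0.649, edgeR) and 1.51 in the proximal tubule (0.592), and Cd44 1.09 and 1.21. Directions turned with the replicate block for Cd44 (0.077) and Spp1 (-0.29) in Schwann cells and for Spp1 in the distal convoluted tubule (0.55, also 1.65 without SARAWT vehicle 3 and 1.66 without SARAWT AA 1 as well), kidney endothelium (1.33, also 0.99 without SARAWT vehicle 3) and thick ascending limb (0.92, also 0.56 without deep cells and 1.81 without SARAWT vehicle 3 and AA 1). They turned for Cd44 in skin T cells with the stricter gate (-0.32) and without shared barcodes (-0.32), for Cd44 in mast cells (-0.088) and Spp1 in kidney neutrophils (-0.11) without a filter on low counts, and in some fits without 1 replicate for Cd44 in skin T cells (-0.31 to 0.46) and skin neutrophils (-0.19 to 0.45) and for Spp1 in the thick ascending limb (-0.61 to 1.97). The cause was not tested. The replicate block changed no call of Spp1 or Cd44 other than that of Spp1 in skin T cells. Without a filter on low counts Spp1 also passed as higher in skin T cells (1.28) and Schwann cells (2.70) and as lower in kidney endothelium (-2.01, with 2 AA libraries), with adjusted p = 0.0313, 7.22e-08 and 0.000834 (edgeR). Classes with under 50 cells in a library, such as neutrophils and thick ascending limb, limit these comparisons by counting error and by single cells.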
